A study of Mus musculus with 3 samples.

Results

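Mature neutrophils are the cells of this report: granulocytes that carry the S100a8 and S100a9 alarmin transcripts and neutrophil receptors, but few transcripts of the secondary granule proteins. They were taken from 3 single-cell RNA libraries of mouse bone marrow, 1 library per group, by a rule on the UMI counts (unique molecular identifiers, 1 per captured transcript). Cells were the barcodes that reached 1000 UMIs and 500 genes and kept mitochondrial UMIs under 10%. A cell was a member when S100a8 and S100a9 made up at least 3% of its UMIs, Camp, Ngp and Ltf together under 1%, and Csf3r, Cxcr2 and Retnlg gave at least 2 UMIs. The rule found 1029 members among 16318 called cells: 44 in WT, 585 in BMT and 400 in aGVHD. The members were thus selected on the levels of these 8 genes, which are given only as a description.

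Per the labels, the WT mice were untreated female CB6F1 mice, the first-generation cross of BALB/c and C57BL/6. The BMT (bone marrow transplantation) mice were female CB6F1 recipients that received 2 irradiations of 4.0 Gy and, 4 hours later, a graft of 5000000 nucleated marrow cells from B6.SJL mice, a strain with the CD45.1 allele. The aGVHD (acute graft-versus-host disease) mice were treated in the same way, and their graft held 60000000 further cells from the spleens of female C57BL/6 mice. All 3 groups were sorted for stroma: CD45, CD71 and lineage-stained cells were depleted, and Calcein AM and DAPI served to keep the living ones. Neutrophils normally carry CD45 and lineage antigens, so the members are the cells that passed this depletion, and their share describes the sorted fraction, not the marrow. The sources used here do not give the age of the mice, how many were pooled, the sex of the marrow donors or the day of collection. In BMT over WT, irradiation, transplantation and the strain of the blood cells change together and cannot be told apart.

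Neutrophils mature in the marrow in a fixed order of granule synthesis. Primary granule genes such as Mpo and Elane are read first, secondary granule genes such as Camp, Ngp, Ltf and Lcn2 next, and gelatinase granule and receptor genes last. The mature cell stops dividing, stores the finished proteins, and waits in the marrow until Cxcr2 signals release it to the blood. Inflammation and the cytokine G-CSF are known to speed this sequence and to raise stefins, lipocalin and other acute-phase transcripts in the granulocytes.

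The label was checked on neutrophil genes that the rule did not use. Mmp8, the collagenase of neutrophil granules, had a UMI in 79.5% of WT members, 76.2% of those in BMT and 91.8% of those in aGVHD, against 0.327%, 0.908% and 0.943% of non-neutrophil cells. Ly6g, the surface antigen used to stain mouse neutrophils, had one in 65.9%, 39.7% and 77.8% of members, against 0.0569%, 0.349% and 0.410% of the others. The markers that the rule used are fixed by selection. A UMI of Retnlg, a resistin-like secreted peptide, was found in 93.2% of WT members, in 97.3% of those in BMT and in 99.3% of those in aGVHD. Csf3r, the G-CSF receptor, had one in 81.8%, 91.3% and 87.8%, against 0.881%, 2.20% and 0.861% of non-neutrophil cells. The median depths of the non-neutrophil cells, 7387, 8481.5 and 6857 UMIs, were greater than those of the members. The members' median depths were 4530.5 UMIs in WT, 3773 in BMT and 5868 in aGVHD, and their summed UMIs were 257204, 2613514 and 2597633. The WT sum is the smallest, so WT levels carry the widest intervals. No member barcode was shared between libraries, although 10 called barcodes were shared by WT and BMT, 11 by BMT and aGVHD, and 8 by WT and aGVHD. At the edges of the rule, the lowest S100a8 and S100a9 share inside it was 3.55% in WT, 3.01% in BMT and 3.14% in aGVHD, and the highest outside it 2.82%, 2.94% and 2.97%. The highest Camp, Ngp and Ltf share inside was 0.999%, 0.937% and 0.998%, and the lowest outside 1.12%, 1.04% and 1.02%.

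Some members also held transcripts of another cell type. Markers of 1 other type exceeded 1% of the UMIs in 5 of 44 WT members, 17 of 585 BMT members and 22 of 400 aGVHD members, erythroid genes reaching 69.3%, 70.5% and 63.3% in single cells. The summed erythroid markers of the members stood at 76367 CPM in WT (CPM, summed UMIs per 1000000 UMIs of the members), 11375 in BMT and 28271 in aGVHD, below the 135681, 21421 and 124702 CPM of empty droplets. The 9 eosinophil and the 10 endothelial markers were all at 0 in the 44 WT members. In BMT and aGVHD members all 10 endothelial markers had UMIs, summing to 100 and 88.9 CPM, against 944 and 563 in empty droplets. Eosinophil markers summed to 7.65 and 7.31 CPM there, against 6.37 and 33.9 in empty droplets. Of the 10 myeloid progenitor markers, Mpo, Elane and Flt3 were at 0 in BMT and aGVHD, and the other 7 had UMIs. The summed list stood at 3289 CPM in WT, 198 in BMT and 152 in aGVHD, against 1473, 774 and 599 in empty droplets. Monocyte markers in aGVHD (1106 against 639 CPM) and megakaryocyte markers in BMT (988 against 854) also exceeded empty droplets. So did basophil and mast markers, a list that holds Hdc, in WT (894 against 115) and BMT (1694 against 415). A doublet score marked 3, 18 and 33 members. Where 1 cell holds most UMIs of a gene, its share is given beside the result.

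Members made up 0.617% of called cells in WT (exact 95% interval 0.449 to 0.828), 16.2% in BMT (15.0 to 17.4) and 7.18% in aGVHD (6.52 to 7.89). The 3 intervals do not overlap. The closest other cells of the series are neutrophils past the same limits but with Camp, Ngp and Ltf at 1% or more, here called immature, numbering 50, 172 and 291 in WT, BMT and aGVHD. Members were 46.8% of all neutrophils in WT (36.4 to 57.4), 77.3% in BMT (74.1 to 80.2) and 57.9% in aGVHD (54.1 to 61.6). Thus BMT had the highest mature share of the 3 libraries, while the WT and aGVHD intervals overlap. All intervals cover counting error only. Each group is 1 library, so replicate spread is unknown, and neither a test nor a p-value can be had.

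The members also differed among libraries in how far they stood from the granule limit. In BMT 359 of 585 members (61.4%, 57.3 to 65.3) had no UMI of Camp, Ngp or Ltf at all, against 15 of 44 in WT (34.1%, 20.5 to 49.9) and 105 of 400 in aGVHD (26.3%, 22 to 30.9). BMT members were also the shallowest, with a median of 3773 UMIs against 4530.5 in WT and 5868 in aGVHD. A shallower cell is more likely to show no granule UMI, and the part of depth in this share was not tested. Because granule content differs so much, several comparisons below are also given for the members without a granule UMI, an alternative chosen after the data were seen.

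**Figure D1:**
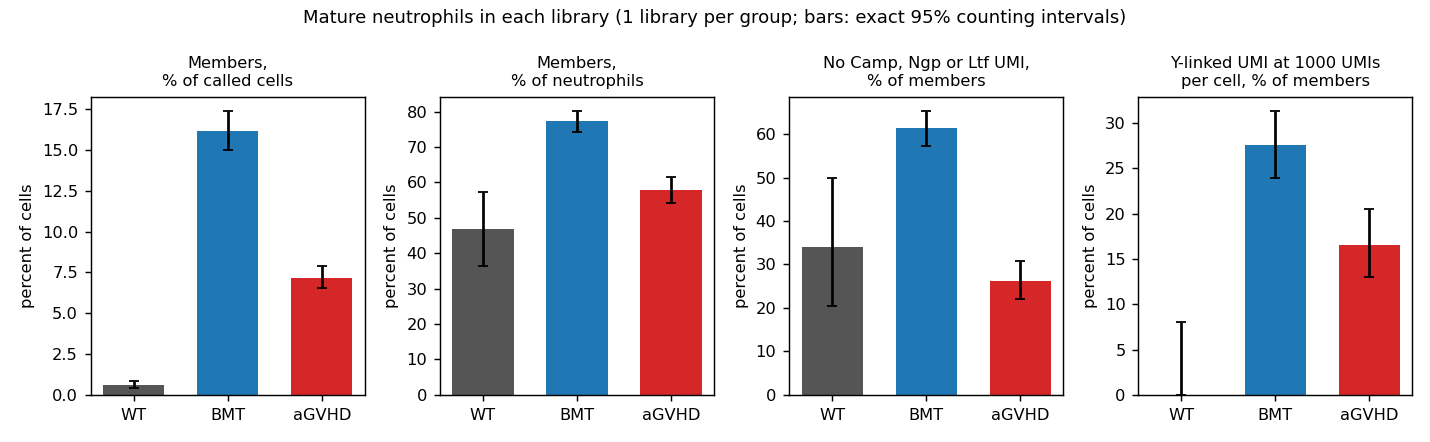
Percent of cells by library (vertical axes, bars) with exact 95% counting intervals: members among called cells, members among neutrophils, members without a Camp, Ngp or Ltf UMI, and members with a Y-linked UMI after thinning each cell to 1000 UMIs. BMT has the highest bar in every panel, and no WT member has a Y-linked UMI.

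Y-linked transcripts, which female hosts lack, were present in members of both transplanted groups. The 4 Y-linked genes Ddx3y, Eif2s3y, Kdm5d and Uty gave 0 UMIs in the 44 WT members, 306 CPM in BMT and 139 CPM in aGVHD. With each cell thinned to 1000 UMIs, 161 of 585 BMT members carried a Y-linked UMI (27.5%, 23.9 to 31.3), and 66 of 400 in aGVHD (16.5%, 13 to 20.5). Unthinned, the numbers were 374 and 192 members. In the endothelial and LepR-positive stromal cells of the same libraries, cell types known to stay largely of host origin after transplantation, the Y-linked level was 4.19 CPM in BMT and 2.31 CPM in aGVHD. Immature neutrophils reached 19.2% (13.6 to 25.9) and 11.7% (8.23 to 15.9) at the same thinned depth. Since these genes are lowly expressed, a cell without a Y-linked UMI may still be male, and the origin of single cells was not assigned.

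Within each library, the members without a granule UMI were compared with the members that had one, each cell thinned to 1000 UMIs, as a description, since the rule uses these granule genes. Lcn2, the iron-siderophore binding lipocalin of secondary granules, was 4.49-fold lower in granule-free members in WT, 3.20-fold lower in BMT and 3.20-fold lower in aGVHD. Ly6g was 2.71-fold lower in BMT and 2.53-fold lower in aGVHD, and 1.72-fold lower in WT with an interval that includes 1. Il1b, the interleukin 1 beta precursor, went the other way and was 2.02-fold (1.31 to 3.13), 1.76-fold (1.52 to 2.03) and 4.26-fold (3.51 to 5.18) higher in granule-free members of WT, BMT and aGVHD. Cxcl2, a neutrophil-attracting chemokine, was 4.78-fold, 1.73-fold and 2.81-fold higher. Cxcr4, the receptor that holds neutrophils in marrow, was 1.51-fold higher in BMT and 2.16-fold higher in aGVHD, and 2.42-fold higher in WT with an interval that includes 1 (0.859 to 7.05). So granule-free members of every library had less Lcn2 and more Il1b and Cxcl2 than the rest.

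Members and immature neutrophils differed in many genes besides those of the rule, and these are again a description. Past a 2-fold rule in each library were 39 genes higher and 27 genes lower in members. This rule asks for at least 50 UMIs over both groups, a difference of at least 2-fold with an exact interval excluding 1, and a higher side at least 2 times the level in empty droplets of the same library (barcodes of at most 100 UMIs). Among all genes measured, it called 5.5% higher and 5.31% lower in WT, 8.61% and 2.13% in BMT, and 3.89% and 1.54% in aGVHD. The chemokine-binding receptor gene Ccrl2 stood at 494 CPM in WT members against 29.2 in immature cells, at 295 against 12.4 in BMT and at 166 against 19.4 in aGVHD. Basp1, a membrane-associated signalling protein, was 8.92-fold, 6.46-fold and 5.44-fold higher in members, and Ifitm1, an interferon-induced membrane protein, 4.39-fold, 14.8-fold and 5.34-fold. On the lower side, Chil3, a chitinase-like protein of maturing neutrophils, was 12.5-fold (10.7 to 14.8), 90.7-fold (70.3 to 119) and 7.64-fold (7.22 to 8.08) lower in members of WT, BMT and aGVHD. Cybb, the catalytic subunit of the phagocyte NADPH oxidase, was 7.28-fold, 7.12-fold and 5.70-fold lower, and the acute-phase orosomucoid Orm1 had 0, 1 and 15 UMIs in members against 199, 99 and 229 in immature cells. The contrast in Chil3 was thus much wider in BMT than in the other libraries.

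By lists, with a gene counted at 1.5-fold and an interval excluding 1, 11 of 12 measured secondary granule genes were lower in members of each library, and 0 higher; the list holds Camp, Ngp and Ltf of the rule. Inflammatory cytokine and chemokine genes were higher in members for 8 of 11, 16 of 20 and 17 of 21 in WT, BMT and aGVHD, and 0 were lower. NF-kB feedback genes were higher for 11 of 13, 20 of 23 and 23 of 23. Type I interferon genes were higher for 7 of 13, 28 of 34 and 20 of 35. Among all measured genes this limit was passed upward by 19.7% in WT, 38.7% in BMT and 31.5% in aGVHD, and downward by 11%, 7.08% and 5.02%.

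The first comparison of libraries, BMT over WT, addresses how the marrow differed after irradiation and transplantation. Of 4009 genes measured with at least 50 UMIs, the 2-fold rule called 406 higher in BMT members (10.1%) and 50 lower (1.25%). The second comparison, aGVHD over BMT, sets the graft with added spleen cells beside the graft without them. It called 63 of 5182 genes higher (1.22%) and 290 lower (5.6%). With 1 library per group, an effect of the spleen cells cannot be told apart from differences between mice or libraries. Both comparisons share the BMT library, so they are not independent of each other. In BMT over WT the balance of calls differed among members without a granule UMI, where 53 genes were higher and 101 lower, and 126 were higher with each cell thinned to 1000 UMIs. Without the mixed members 76 genes were lower. The balance of higher and lower calls moved with the scaling, and its side did not. The median log2 fold over all measured genes was 0.30 for the first comparison and −0.28 for the second. Scaled to total UMIs, the higher calls made up 89.0% of the calls in the first and 17.8% in the second. With scaling by the median gene, which shifts log2 folds by 0.28 and −0.28, they made up 75.6% and 36.2%, and scaling without the 8 rule genes gave 87.8% and 24.5%. Gene lists below are therefore set beside the all-gene median. For lists, a gene counted as higher or lower at 1.5-fold with an interval excluding 1, a rule that called 22.6% of all measured genes higher and 11.6% lower in BMT over WT, and 9.69% higher and 29.8% lower in aGVHD over BMT.

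**Figure D2:**
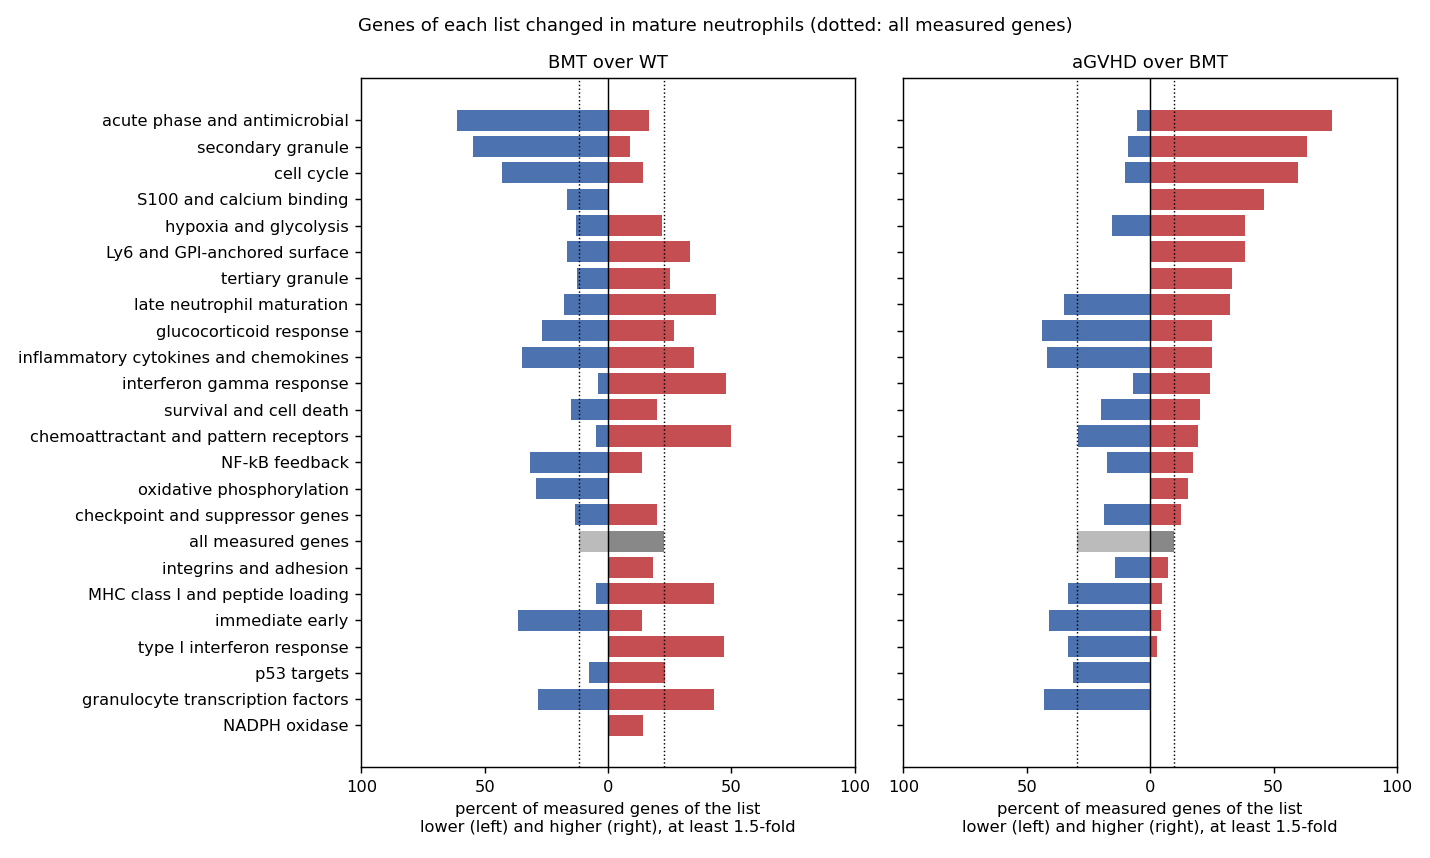
Percent of the measured genes of each list that were at least 1.5-fold lower (blue, left) or higher (red, right) in members, for BMT over WT and aGVHD over BMT, with the share among all measured genes in grey and as dotted lines. Acute-phase genes stand at the top right of the second panel, and type I interferon genes are on the right of the first panel and on the left of the second.

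Most acute-phase and antimicrobial genes that were measured were higher in aGVHD than in BMT, and part of them were lower in BMT than in WT. Leaving out the rule genes Camp and Ngp, 9 of 16 measured genes of the list were lower and 3 higher in BMT over WT (median log2 fold −0.72), and 13 of 17 were higher and 1 lower in aGVHD over BMT (median log2 fold 1.44). Among all measured genes the lower share in the first comparison was 11.6% and the higher share in the second 9.69%. The largest folds belonged to the stefins, cysteine protease inhibitors that neutrophils make in quantity and whose mouse genes form a tandem cluster. In the GRCm38 annotation that cluster holds 7 stefin genes within chr16:36156811-36455392, a span of 298.582 kb.

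The stefin promoters are shown because these neighbouring genes moved together in aGVHD and carry a stretch in common. Each sequence is the 250 bases before the RefSeq start site on GRCm38.p6, 5′ to 3′ on the gene's strand. The capitals mark the 15-base stretch that the promoters of Stfa1, Stfa2, Stfa2l1 and Stfa3 share. Cstdc5 is the RefSeq gene that starts within BC100530 of the deposited gene list, annotated at chr16:36359382-36367748.

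Stfa2 (chr16:36408364-36408613, minus strand): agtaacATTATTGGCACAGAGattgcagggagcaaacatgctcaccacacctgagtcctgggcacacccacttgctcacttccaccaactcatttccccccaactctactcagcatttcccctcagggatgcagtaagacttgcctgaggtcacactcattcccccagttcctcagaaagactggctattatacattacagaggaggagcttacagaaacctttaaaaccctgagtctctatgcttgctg

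Stfa2l1 (chr16:36156561-36156810, plus strand): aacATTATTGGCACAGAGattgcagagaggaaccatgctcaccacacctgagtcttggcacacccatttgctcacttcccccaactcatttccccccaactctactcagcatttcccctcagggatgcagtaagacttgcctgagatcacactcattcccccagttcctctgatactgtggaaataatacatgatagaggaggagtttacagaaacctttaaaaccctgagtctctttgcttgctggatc

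Stfa3 (chr16:36455393-36455642, minus strand): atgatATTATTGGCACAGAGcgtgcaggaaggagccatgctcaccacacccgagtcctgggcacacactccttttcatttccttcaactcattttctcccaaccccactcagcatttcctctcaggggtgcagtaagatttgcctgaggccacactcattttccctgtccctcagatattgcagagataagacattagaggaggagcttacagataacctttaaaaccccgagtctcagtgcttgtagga

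Stfa1 (chr16:36276898-36277147, plus strand): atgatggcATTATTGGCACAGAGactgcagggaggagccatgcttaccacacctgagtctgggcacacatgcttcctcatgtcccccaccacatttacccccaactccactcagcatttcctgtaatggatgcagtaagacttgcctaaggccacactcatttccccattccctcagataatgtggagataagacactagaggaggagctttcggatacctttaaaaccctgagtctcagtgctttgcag

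Cstdc5 (chr16:36367571-36367820, minus strand): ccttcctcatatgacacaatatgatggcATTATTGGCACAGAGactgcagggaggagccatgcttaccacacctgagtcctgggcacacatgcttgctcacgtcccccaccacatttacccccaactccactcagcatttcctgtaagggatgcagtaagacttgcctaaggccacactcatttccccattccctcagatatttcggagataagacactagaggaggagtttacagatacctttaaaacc

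Searched as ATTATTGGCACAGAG on both strands, the stretch occurred in 5 of 32851 RefSeq promoters of this length (0.0152%), those 5. The whole promoters of Stfa1, Stfa2, Stfa2l1 and Stfa3 were 80.4% to 89.4% identical in pairs, so the stretch is part of a longer likeness between gene copies. It was found after the values were seen, and a match describes these letters only.

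Stfa2 ranked first among the genes higher in aGVHD over BMT. Its level was 191 CPM in WT members, 13 in BMT and 801 in aGVHD. The aGVHD level was 61.6-fold above BMT (43.9 to 89.1), and the BMT level 14.6-fold below WT (9.26 to 23.4). At 1000 UMIs per cell, a Stfa2 UMI was found in 13.6% of WT members, 0.9% of those in BMT and 21.8% of those in aGVHD, so aGVHD and WT both stood well above BMT. BC100530 followed the same order with 404, 40.2 and 962 CPM, aGVHD being 23.9-fold above BMT (19.7 to 29.4). Stfa3 had 19.4, 12.2 and 196 CPM and was 16-fold higher in aGVHD (11.2 to 23.6), but WT and BMT did not differ beyond counting error. Stfa2l1 had 1396, 994 and 2119 CPM (2.13-fold, 2.03 to 2.23), and Gm5483, another stefin gene of the cluster, 1614, 1048 and 2835 CPM (2.71-fold, 2.59 to 2.83). Stfa1 alone rose from WT to BMT and again to aGVHD, with 93.3, 251 and 684 CPM. All 6 were thus highest in aGVHD. The copies are close in sequence: transcripts of Stfa2 and Stfa2l1 share an identical run of 97 bases and those of Stfa1 and BC100530 one of 128, so how reads were divided among them is uncertain. Among members without a granule UMI, the aGVHD-over-BMT folds of Stfa2 and BC100530 were 10.9 (6.44 to 19.3) and 3.44 (2.54 to 4.66), and that of Stfa2l1 was 2.34.

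**Figure D3:**
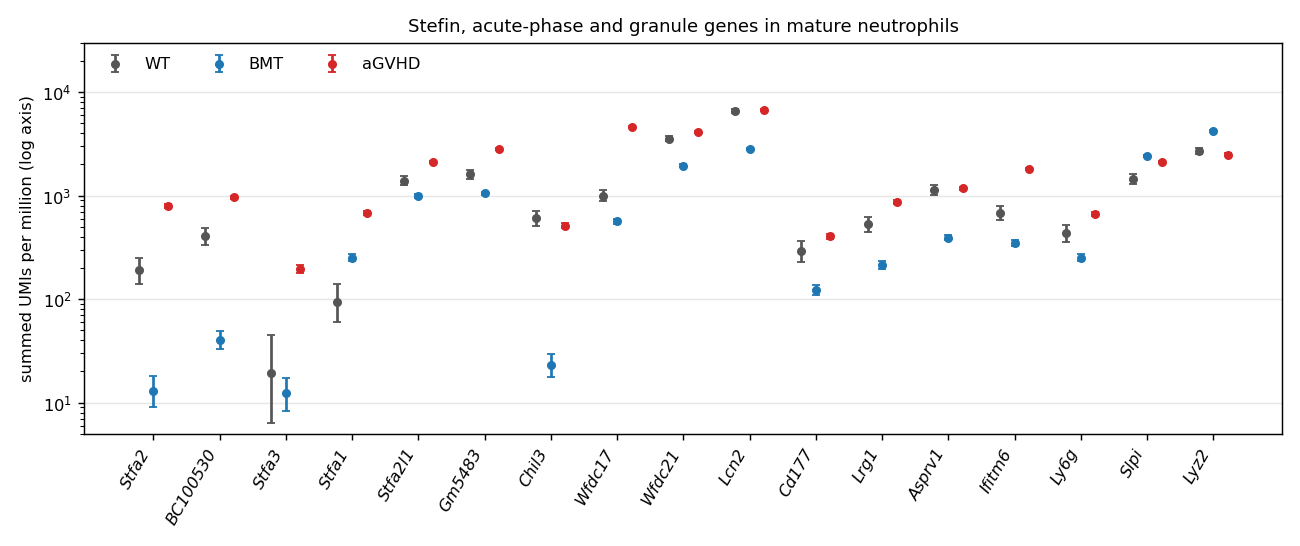
CPM over the members of each library (log axis) with exact 95% counting intervals, for stefin, acute-phase and granule genes. Most genes have their lowest point in BMT and their highest in aGVHD, Stfa2 running from 13 in BMT to 801 in aGVHD, while Lyz2 and Slpi are highest in BMT.

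Beyond the stefins, Chil3 stood at 603 CPM in WT, 23 in BMT and 513 in aGVHD members. The aGVHD level was 22.4-fold above BMT (17.3 to 29.5), and the BMT level lay under the 89.4 CPM of its own empty droplets. Wfdc17, a secreted whey acidic protein family member, had 999, 564 and 4632 CPM and was 8.22-fold higher in aGVHD (7.78 to 8.68). It lies at chr11:83703991-83706268, with the related Wfdc21 at chr11:83746940-83752642, which had 3557, 1948 and 4137 CPM. Lcn2 had 6543, 2817 and 6690 CPM with aGVHD 2.37-fold above BMT (2.31 to 2.44). WT and aGVHD levels of Chil3, Wfdc21 and Lcn2 were thus near each other, with BMT below both, while Wfdc17 was far above both in aGVHD. Lrg1, a secreted leucine-rich glycoprotein, had 529, 213 and 862 CPM. Cd177, a surface glycoprotein of neutrophils, had 292, 123 and 403 CPM, and Ly6g 432, 252 and 661 CPM. Asprv1, a retroviral-like aspartic protease, had 1135, 393 and 1177 CPM. Ifitm6 and Ifitm1, membrane proteins of the interferon-induced transmembrane family, had 684, 346 and 1812 CPM and 1209, 913 and 3562 CPM.

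The antimicrobial genes Lyz2 and Slpi did not follow this order. Lyz2, the lysozyme of myeloid cells, had 2694 CPM in WT, 4236 in BMT and 2490 in aGVHD, and was 1.70-fold lower in aGVHD than in BMT (1.65 to 1.75). Slpi, an inhibitor of elastase, had 1450, 2430 and 2113 CPM. Both were highest in BMT. Mmp8 and Mmp9, the collagenase and gelatinase of neutrophil granules, had 1232, 1121 and 1680 CPM and 688, 491 and 906 CPM, within 2-fold in each comparison. Calls of the acute-phase list were also seen in members without a granule UMI, where 6 of 13 genes were lower and 1 higher in BMT over WT, and 12 of 16 higher and 1 lower in aGVHD over BMT. Over all genes measured in these cells, 4.71% were higher and 6.89% lower in the first comparison, and 9.11% higher and 23.5% lower in the second. There Chil3 was 25.5-fold (16.3 to 41.8), Wfdc17 8.49-fold (7.92 to 9.09) and Lrg1 3.47-fold (2.94 to 4.10) higher in aGVHD, folds as large as or near those over all members.

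Other genes that led the higher side of aGVHD over BMT were less abundant. Prok2, the secreted prokineticin Bv8, had 38.9, 4.59 and 103 CPM and was 22.4-fold higher in aGVHD (12.6 to 43.9). Lipg, a lipase, had 15.6, 1.91 and 41.2 CPM, the fold being 21.5 (8.94 to 67.7). Ggt1, a gamma-glutamyl transferase of glutathione turnover, had 11.7, 3.83 and 52.0 CPM (13.6-fold, 7.16 to 29.0). Each had its lowest level in BMT. Retnla, a resistin-like peptide, had 0 UMIs in WT and BMT members and 32.7 CPM in aGVHD, at least 28.5-fold higher than a floor of 3 UMIs in BMT, but 52.9% of its UMIs came from 1 cell.

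Part of the type I interferon genes rose from WT to BMT members, and some of these were lower again in aGVHD. These are antiviral effectors that cells switch on through the interferon alpha and beta receptor. In BMT over WT 16 of 34 measured genes were higher and 0 lower (median log2 fold 0.82, 0.53 above the all-gene median), against 22.6% and 11.6% of all measured genes. In aGVHD over BMT 12 of 36 were lower and 1 higher (median log2 fold −0.44, against −0.28 for all genes), and that share is near the 29.8% of all measured genes that were lower. Ifit3, which holds back translation of viral RNA, had 46.7 CPM in WT, 182 in BMT and 58.1 in aGVHD. BMT was 3.90-fold above WT (2.21 to 7.61) and 3.13-fold above aGVHD (2.60 to 3.79). Its copy Ifit3b had 27.2, 77.7 and 17.3 CPM, 4.48-fold lower in aGVHD (3.23 to 6.34). Ifit2 had 7.78 CPM in WT, which is 2 UMIs, 61.6 in BMT and 14.6 in aGVHD, 4.21-fold lower in aGVHD (2.94 to 6.17). These 3 neighbours on chromosome 19 were thus all highest in BMT.

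Oasl1, an OAS-like regulator of the response, had 19.4, 102 and 43.1 CPM. Rtp4, a chaperone induced by interferon, had 109, 371 and 264 CPM. Rsad2, the antiviral enzyme viperin, had 385 and 394 CPM in WT and BMT, without a difference beyond counting error, and 144 in aGVHD, 2.74-fold below BMT (2.43 to 3.09). Isg15, the interferon-induced ubiquitin-like modifier, had 630, 833 and 416 CPM, and aGVHD was 2.0-fold below BMT (1.86 to 2.16). Ifitm3, a membrane protein that blocks virus entry, was the single higher member, with 2753, 2230 and 4078 CPM (1.83-fold, 1.77 to 1.89). In members without a granule UMI 4 of 24 genes were higher (16.7%) and 0 lower in BMT over WT. In aGVHD over BMT 10 of 30 were lower (33.3%) and 1 higher, and Ifit3 was 3.56-fold lower (2.38 to 5.53). All genes measured in these cells gave 4.71% higher and 6.89% lower in the first comparison, and 9.11% higher and 23.5% lower in the second.

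The promoters of Ifit3 and Rsad2 are shown because both genes were lower in aGVHD and hold an interferon-response type element, GAAA followed after 2 bases of any kind by GAAA, searched on both strands. Capitals mark the matches, which read as the reverse complement on the gene's strand.

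Ifit3 (chr19:34583279-34583528, plus strand): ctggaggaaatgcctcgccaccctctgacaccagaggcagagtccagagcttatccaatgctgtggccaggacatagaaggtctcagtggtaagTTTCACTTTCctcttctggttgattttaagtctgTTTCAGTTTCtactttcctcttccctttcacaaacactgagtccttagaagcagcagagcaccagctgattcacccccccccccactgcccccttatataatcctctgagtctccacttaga

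Rsad2 (chr12:26456453-26456702, minus strand): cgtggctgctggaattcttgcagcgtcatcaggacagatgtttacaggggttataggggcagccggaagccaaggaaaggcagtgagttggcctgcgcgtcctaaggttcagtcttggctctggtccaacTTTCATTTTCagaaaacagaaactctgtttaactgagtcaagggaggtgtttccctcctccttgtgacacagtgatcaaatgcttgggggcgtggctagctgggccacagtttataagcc

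The element occurred in 978 of 32851 promoters (2.98%), or 936 of 27025 genes (3.46%). Of the 32 type I interferon genes matched by symbol, 14 held it, as did 7 of the 11 matched genes lower in aGVHD over BMT and 6 of the 12 matched genes higher in BMT over WT. Ifit2 and Oasl1 had no match in this window. A match describes the letters and not a bound site.

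MHC class I genes present peptides to CD8 T cells and differ between the H2 haplotypes of the strains. In BMT over WT 9 of 21 measured genes of the class I and peptide loading list were higher and 1 lower (median log2 fold 0.78), against 22.6% and 11.6% of all measured genes. In members without a granule UMI 7 of 17 were higher and 0 lower, against 4.71% and 6.89% of all genes measured in them. The WT side of this count is 15 cells with 33969 UMIs. In aGVHD over BMT 7 of 21 were lower and 1 higher over all members, with a median log2 fold of −0.21 that lies 0.06 above the all-gene median, and the lower share is near the 29.8% of all measured genes. H2-D1 had 3542 CPM in WT, 6790 in BMT and 4420 in aGVHD, and H2-K1 1470, 3110 and 2097 CPM. H2-Q10 had 113, 333 and 89.3 CPM, 3.72-fold lower in aGVHD than in BMT (3.22 to 4.32). H2-T22 had 70.0, 292 and 121 CPM, and B2m, the shared light chain, 2103, 3607 and 2495 CPM. All 5 were thus highest in BMT. The strain of the blood cells also changes from WT to BMT, and reads of all strains were counted on the mm10 build. Higher class I levels in BMT over WT therefore cannot be told apart from a difference in how the haplotypes were counted, which was not tested. Empty droplets held B2m at 3140 CPM in BMT and 2569 in aGVHD, near the member levels, and the class I genes are near-identical copies, so how reads were divided between them is not known.

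Genes of the interferon gamma list gave 12 of 25 higher and 1 lower in BMT over WT, and 7 of 29 higher and 2 lower in aGVHD over BMT. All measured genes gave 22.6% higher and 11.6% lower in the first comparison, and 9.69% and 29.8% in the second. Among members without a granule UMI, 1 of 16 was higher and 1 lower in BMT over WT (6.25% each way). That is near the 4.71% higher and 6.89% lower of all genes measured in these cells. In aGVHD over BMT those cells gave 5 of 21 higher and 0 lower, against 9.11% and 23.5% of all genes measured in them. Of the higher genes in aGVHD, Cxcl10, a T cell attracting chemokine, had 27.2, 23 and 171 CPM, and Iigp1, a GTPase that attacks vacuoles of parasites, 0, 32.1 and 82.0 CPM. The empty droplets of BMT and aGVHD held more of both than the members, with 611 and 604 CPM of Cxcl10 and 371 and 298 of Iigp1. Free RNA was estimated at 0.948% of member UMIs in BMT and 0.784% in aGVHD. With it subtracted, 106 aGVHD-over-BMT log2 folds, those of Cxcl10 and Iigp1 included, stayed within their intervals, and 0 moved. Whether the members themselves express Cxcl10 or Iigp1 was not tested, and these levels do not speak to the rest of the list.

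Part of the receptor genes were higher in BMT than WT. Without the rule genes, 18 of 38 measured receptors for chemoattractants, cytokines and microbial patterns were higher and 2 lower (median log2 fold 0.61), and in aGVHD over BMT 8 of 39 were higher and 11 lower (median log2 fold −0.31, near the −0.28 of all genes). Over all measured genes, 22.6% were higher and 11.6% lower in the first comparison, and 9.69% and 29.8% in the second. Ccr1, a receptor for inflammatory CC chemokines, had 338 CPM in WT, 1044 in BMT and 493 in aGVHD. BMT was 3.09-fold above WT (2.49 to 3.87) and 2.12-fold above aGVHD (1.98 to 2.27). Il1r2, the decoy receptor for interleukin 1, had 805, 2256 and 1260 CPM, and Clec4d, a C-type lectin that recognises microbial glycolipids, 766, 1731 and 896 CPM. Csf2ra, a GM-CSF receptor chain, had 148, 420 and 236 CPM. Cd14, the co-receptor for endotoxin, differed from these and was highest in aGVHD, with 1159, 1989 and 3136 CPM.

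The receptor directions were not the same among members without a granule UMI. Among members without a granule UMI, 3 of 37 receptors were higher and 8 lower in BMT over WT (median log2 fold −0.27), and 9 of 40 higher and 2 lower in aGVHD over BMT (median log2 fold 0.10). For all genes measured in these cells the shares were 4.71% higher and 6.89% lower, and 9.11% higher and 23.5% lower. The Il1r2 level in BMT was then 1.01 times that in WT (0.823 to 1.24), and Clec4d and Cxcr4 were 1.09-fold (0.857 to 1.37) and 1.41-fold (0.909 to 2.11) lower, which counting error covers. Ccr1 kept a 1.51-fold higher level in BMT (1.06 to 2.25), and in aGVHD it was 1.55-fold lower than in BMT (1.38 to 1.74). The WT side of these values is 15 cells.

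**Figure D4:**
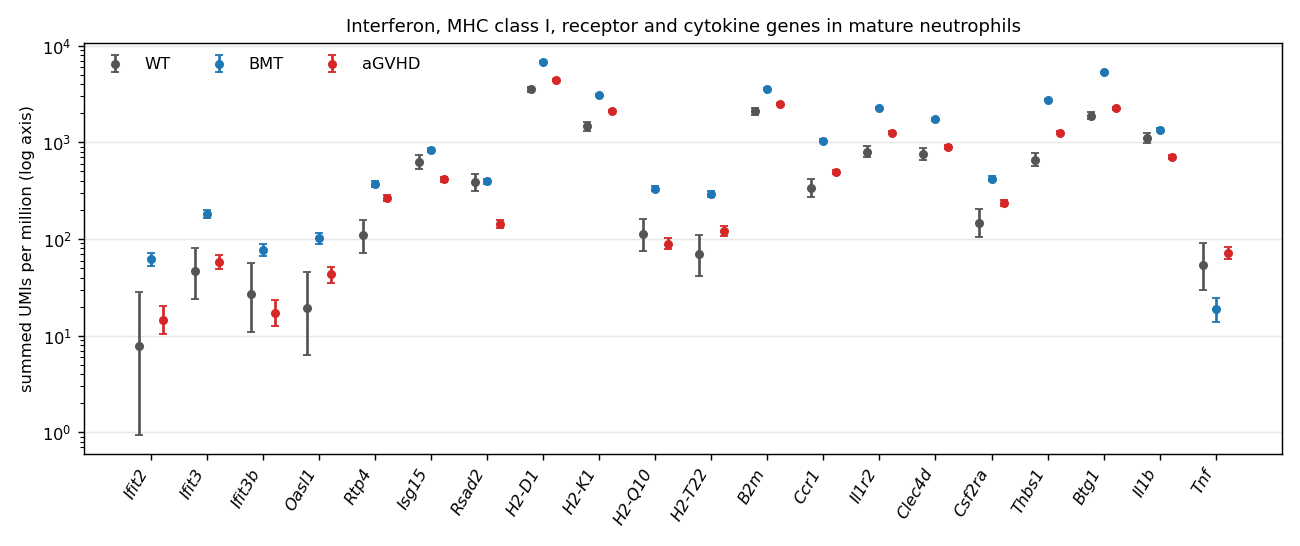
CPM over the members of each library (log axis) with exact 95% counting intervals, for interferon, MHC class I, receptor and cytokine genes. BMT is the highest of the 3 libraries for every gene shown except Tnf, for which it is the lowest, and Rsad2, whose WT and BMT intervals overlap.

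Cytokine and mediator genes moved in both directions. In BMT over WT 7 of 20 measured genes were higher and 7 lower (35% each way), against 22.6% and 11.6% of all measured genes. In aGVHD over BMT 6 of 24 were higher (25%) and 10 lower (41.7%), against 9.69% and 29.8%. Tnf, the tumour necrosis factor gene, had 54.4, 18.7 and 72 CPM, BMT being 2.90-fold below WT (1.48 to 5.34) and 3.84-fold below aGVHD (2.79 to 5.37). Il1b had 1108, 1357 and 704 CPM and was 1.93-fold lower in aGVHD than in BMT (1.82 to 2.04), yet 1.0-fold (0.923 to 1.09) in members without a granule UMI. Cxcl2 had 4067, 2430 and 2345 CPM and differed little between BMT and aGVHD, but was 1.52-fold higher in aGVHD in members without a granule UMI (1.44 to 1.60). Thbs1, the adhesive glycoprotein thrombospondin 1, had 665, 2763 and 1258 CPM, and Ccl6, a CC chemokine of myeloid cells, 1085, 2598 and 1449 CPM. Hdc, which makes histamine, had 894, 1687 and 906 CPM. Thbs1, Ccl6 and Hdc were all highest in BMT, although the log2 fold of BMT over WT for Hdc was −0.11 in members without a granule UMI.

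NF-kB feedback genes, inhibitors that the pathway switches on to limit itself, were lower in BMT than in WT members for 7 of 22 and higher for 3, and in aGVHD over BMT 4 of 23 were higher and 4 lower. The first shares are 31.8% lower and 13.6% higher, against 11.6% and 22.6% of all measured genes. The second are 17.4% each way, against 9.69% higher and 29.8% lower of all measured genes. Among members without a granule UMI the list was one-sided: 12 of 19 were lower and 0 higher in BMT over WT (median log2 fold −1.40), and 14 of 23 higher and 0 lower in aGVHD over BMT (median log2 fold 0.86). All genes measured in these cells gave 6.89% lower and 4.71% higher in the first comparison, and 9.11% higher and 23.5% lower in the second. The WT side there is 15 cells with 33969 UMIs. Nfkbia, the inhibitor that holds NF-kB in the cytoplasm, had 1726, 758 and 1242 CPM over all members. Among granule-free members aGVHD was 2.63-fold above BMT (2.41 to 2.86). Tnfaip3, the ubiquitin-editing enzyme A20, had 159, 60.1 and 93.5 CPM and was 3.19-fold higher there (2.39 to 4.26). Nfkbiz, a nuclear co-factor of NF-kB, had 362, 130 and 251 CPM and was 3.1-fold higher there (2.53 to 3.78). Empty droplets of WT, BMT and aGVHD held 448, 713 and 569 CPM of Nfkbia, below or near the member levels. With free RNA subtracted, estimated at 0.50%, 0.948% and 0.784% of member UMIs, the log2 folds of Nfkbia over all members were −1.19 for BMT over WT and 0.72 for aGVHD over BMT, against −1.19 and 0.71 without subtraction.

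**Figure D5:**
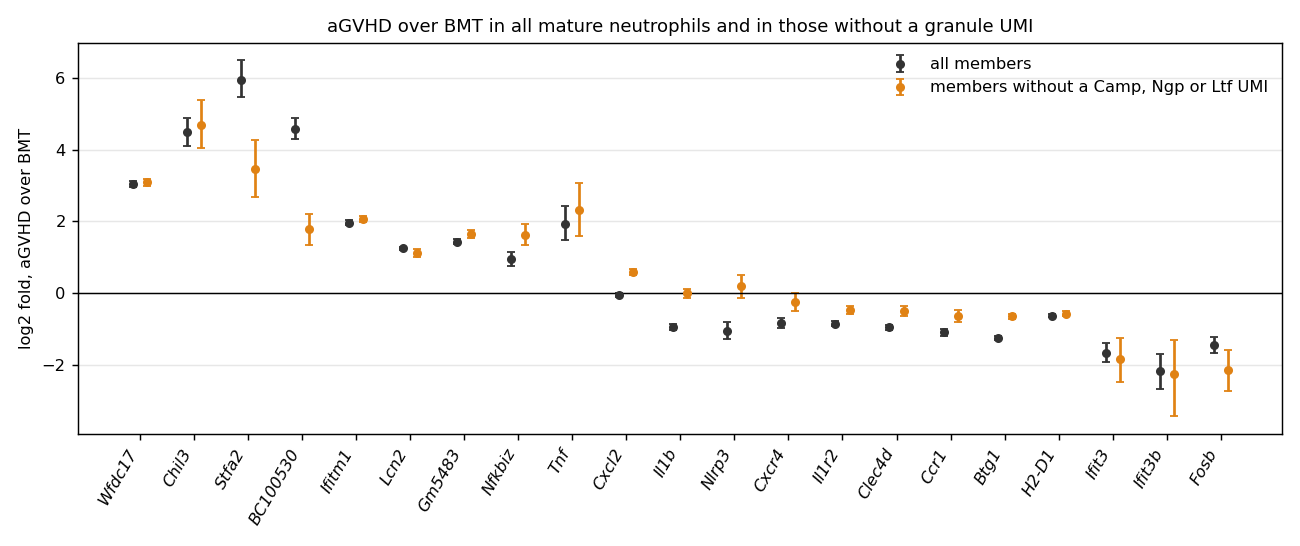
Log2 fold of aGVHD over BMT with exact 95% counting intervals, for all members (black) and for members without a Camp, Ngp or Ltf UMI (orange). Wfdc17, Chil3, Ifit3 and H2-D1 have like values in both, Stfa2 and BC100530 are smaller in granule-free members, and Il1b, Nlrp3 and Cxcl2 move upward.

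The hypoxia and glycolysis list, which also holds hypoxia genes such as Hif1a and Vegfa, was not split into its parts. In aGVHD over BMT 10 of its 26 measured genes were higher and 4 lower (median log2 fold 0.44, 0.72 above the all-gene median), against 9.69% and 29.8% of all measured genes. In BMT over WT 5 of 23 were higher and 3 lower, against 22.6% and 11.6%. Ldha, lactate dehydrogenase, had 264, 154 and 339 CPM, aGVHD being 2.20-fold above BMT (1.95 to 2.48). Gapdh had 1217, 1212 and 2013 CPM (1.66-fold, 1.59 to 1.74), and Tpi1, triosephosphate isomerase, 66.1, 31.4 and 101 CPM (3.23-fold, 2.51 to 4.19). Slc2a3, a glucose transporter, was lower in aGVHD than in BMT, with 226, 357 and 175 CPM. Its log2 fold of BMT over WT was below 0 with thinned cells (−0.62) and in members without a granule UMI (−0.16). Empty droplets held 419 CPM of Ldha and 154 of Tpi1 in aGVHD, above the member levels. In members without a granule UMI 9 of 22 genes of the list were higher and 2 lower in aGVHD over BMT, against 9.11% and 23.5% of all genes measured in them.

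Of the NADPH oxidase genes, whose products make superoxide, 0 of 7 measured passed the 1.5-fold limit in aGVHD over BMT. Cyba had 1186, 1086 and 1243 CPM, and Rac2 789, 815 and 1003. Of the granulocyte transcription factors 0 of 14 were higher and 6 lower (42.9%) in aGVHD over BMT. The all-gene shares of this comparison were 9.69% higher and 29.8% lower. Cebpb, a factor of emergency granulopoiesis, had 2718, 4911 and 3951 CPM, and Spi1, the myeloid factor PU.1, 447, 402 and 455. Spi1 differed little among the libraries. Mxd1, a MYC antagonist of resting cells, had 960, 1570 and 927 CPM. Btg1, an anti-proliferative factor, had 1890, 5316 and 2244 CPM and was 2.37-fold lower in aGVHD than in BMT (2.30 to 2.44). Survival and death genes gave 5 of 25 higher and 5 lower in aGVHD over BMT, or 20% each way, against 9.69% higher and 29.8% lower of all measured genes. Pycard, the adaptor of the inflammasome, had 105, 33.3 and 138 CPM, and its sensor Nlrp3 117, 185 and 90.1. The Nlrp3 differences did not hold throughout: its log2 fold of BMT over WT was −0.17 with thinned cells, and that of aGVHD over BMT was 0.19 in members without a granule UMI. Mcl1, a survival factor of neutrophils, had 840, 1621 and 1132 CPM. Arg2, an arginase, had 206, 489 and 358 CPM, and Alox5ap, which feeds leukotriene synthesis, 1855, 1182 and 2614. The PD-L1 gene Cd274 had 93.3, 115 and 82.4 CPM. Over all members Mxd1, Mcl1, Arg2 and Nlrp3 were each highest in BMT. In members without a granule UMI their BMT-over-WT log2 folds were below 0, at −0.12, −0.19, −0.13 and −1.19.

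The genes with the highest ratios of BMT over WT were few in WT. Cwc25, a splicing factor at chr11:97745481-97766556, had 54.4 CPM in WT, 716 in BMT and 156 in aGVHD members, BMT being 13.1-fold above WT (7.81 to 24.1) and 4.58-fold above aGVHD (4.11 to 5.11). Isy1, another splicing factor, had 58.3, 510 and 183 CPM, and Cd300ld, an immunoreceptor of myeloid cells, 85.5, 557 and 179. All 3 were highest in BMT. Arl4c, a small GTPase, had 15.6, 212 and 99.3 CPM, and Dusp6, a phosphatase of ERK, 23.3, 254 and 169. Pmvk, of the mevalonate pathway, had 3 UMIs in WT and a ratio of 19.6 (6.68 to 95.4). Ccdc189 and Heca had 0 UMIs in WT, and were at least 5.87-fold and at least 5.68-fold higher in BMT than a floor of 3 UMIs. The Y-linked Ddx3y and Eif2s3y, likewise at 0 in WT, were at least 13.9-fold and at least 9.32-fold higher.

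On the lower side of BMT over WT, most leading genes came from single WT cells. In WT, 1 member held 100% of the Elane and of the Mpo UMIs and 99.6% of those of Prtn3, which are primary granule proteases and peroxidase. Similarly 1 member held 95.2% of Mmp13, 91.4% of Serpine2, 98.9% of Tnc and 97.8% of Lifr, genes of stromal cells. These 7 ratios describe those cells and not the members. Chil3, Stfa2 and BC100530 were the others, with at most 31.7% of their WT UMIs in 1 cell. The immediate early genes Fos, Fosb and Jun, which respond to cell handling among other stimuli, were likewise lower in BMT over WT, but 53.7%, 45.7% and 61.3% of their WT UMIs came from 1 cell. In every library the empty droplets held more of each than the members did.

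The leading lower genes of aGVHD over BMT were of other families. Amica1, the junctional adhesion molecule JAML, had 35.0, 197 and 30.4 CPM and was 6.47-fold lower in aGVHD (5.09 to 8.30). Jmy, an actin nucleator, had 3.89, 76.5 and 10 CPM (7.65-fold lower, 5.07 to 12.0), and Uvrag, of autophagy, 42.8, 117 and 20.4 CPM (5.76-fold lower, 4.29 to 7.86). Ralgapa1, a GTPase activator for Ral, had 50.5, 214 and 48.5 CPM, Gla, the lysosomal galactosidase, 42.8, 235 and 56.6, and Gpr137b-ps, a pseudogene, 31.1, 169 and 38.5. In all 6 the WT and aGVHD levels were both below BMT. Mpp7, a scaffold protein, had 0, 47.4 and 7.70 CPM. Pak1, a kinase of the cytoskeleton, had 62.2, 61.2 and 10.8 CPM, so here WT was as high as BMT. Aard had all of its 71 UMIs in 1 BMT cell.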

How the data were processed

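The deposited matrices hold raw UMI counts per gene and barcode, empty droplets included, with no normalisation. The authors used Cell Ranger and Seurat with the mm10 genome build, per the submitters' processing notes, and Cell Ranger 3.1.0 wrote the files, per the file headers. Each matrix listed 27998 genes and 6794880 barcodes, with 86575425 UMIs in all for WT, 44219063 in BMT and 67439098 in aGVHD. The mitochondrial limit removed 544, 253 and 548 barcodes. Per-sample columns that belong to no sample numbered 0.

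UMIs were summed over the members of a library and scaled to 1000000 (Python 3.11.15, numpy 2.4.6, scipy 1.17.1, pandas 2.3.3). Ratios carry exact 95% intervals conditional on the summed UMIs, and shares exact Clopper-Pearson intervals. UMIs are molecules, and the intervals cover counting error alone. A gene at 0 in a library took a floor of 3 UMIs. The genes named are the first 10 higher and first 10 lower calls of each comparison, ranked by the interval bound nearest to 1, besides members of 25 gene lists. Unnamed gene models, ribosomal, mitochondrial, haemoglobin and immunoglobulin genes and the 8 genes of the rule were left out of that ranking. The members and lists were chosen with earlier results of these data known. The list symbols Ahsp, Cebpd, Clec7a, Gsdme, Ifi209, Ifi213 and Mx2 were not analysed here. Doublets were kept in the main values, and Scrublet (scanpy 1.11.5) scored them for an alternative. The other alternatives were stricter limits of the rule, other scalings, subtraction of free RNA, thinning to 1000 UMIs per cell, no limit on low counts and no condition on empty droplets. Those without mixed members and without granule UMIs were chosen after the data were seen. The scripts were tested on simulated data. Promoters came from RefSeq on GRCm38.p6 and gene positions from GENCODE vM21 on GRCm38.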

Additional observations from a re-analysis of the deposited data

How the results depend on the processing

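No paired analysis was possible because each group is 1 library and no test was made. With Camp, Ngp and Ltf under 0.5%, members were 72.4% of neutrophils in BMT and 45.7% in aGVHD, and 5.68% of called cells in aGVHD, by construction fewer. In BMT over WT, genes at least 2-fold lower numbered 76 without mixed members, 91 with scaling by the median gene, 101 in members without a granule UMI and 175 with no limit on low counts. Those higher numbered 126 with thinned cells and 53 in members without a granule UMI. In aGVHD over BMT, those lower numbered 164 with scaling by the median gene and 190 with thinned cells. With no condition on empty droplets, 682 were higher and 308 lower in BMT over WT, and 237 and 731 in aGVHD over BMT.

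Some BMT-over-WT log2 folds changed sign. With likely doublets removed, that of Errfi1 was 1.88, of Fos 0.37, of Fosb 0.79, of Jun 0.81 and of Serpine2 1.17. Without mixed members, Errfi1 stood at 1.23, Fosb at 0.63 and Jun at 0.87. With thinned cells, the oxidative phosphorylation list had a median of 0.046, Fosb 0.35, Nlrp3 −0.17 and Slc2a3 −0.62. In members without a granule UMI, the receptor list had a median of −0.27, the oxidative phosphorylation list 0.012, Adam8 −0.14, Arg2 −0.13, Clec4d −0.12, Cxcr4 −0.50, Hdc −0.11, Mcl1 −0.19, Mxd1 −0.12, Nlrp3 −1.19 and Slc2a3 −0.16, while Fos had 0.70, Fosb 0.70 and Jun 0.63. In aGVHD over BMT the same cells gave 0.10 for the receptor list, 0.0045 for Il1b and 0.19 for Nlrp3. Apart from fewer cells in the alternatives that leave cells out, the cause was not tested. Depth limits the WT side most, with 44 members.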
